A study of Homo sapiens with 16 samples.

Results

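The genes described here make, sense and move sterols and fatty acids: 34 named symbols, of which 33 were matched to a gene ID among the 34618 of the deposited counts table. The rule names them by symbol and uses no measured value. By role they were 6 enzymes of the mevalonate pathway, 11 enzymes from squalene to cholesterol, 5 genes of SREBP control, 5 genes of sterol transport or of the LXR response, and 6 genes of fatty acid synthesis. ACACA is a further named member whose symbol matched no ID, and it was not analysed here. RNA was measured in KG1A, an immature CD34-positive human acute myeloid leukaemia line, and in U937, a human promonocytic leukaemia line. Cells of both lines were grown in medium with dialyzed serum and received NEL at 10 µM or the vehicle DMSO, with 4 libraries for each line and treatment and 16 in all. The labels do not spell out NEL or give a duration of treatment. From outside knowledge it was read as nelarabine, a prodrug of a guanine nucleoside analogue, and the labels do not settle that reading.

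Cells build cholesterol from acetyl-CoA through mevalonate, isoprenoid units, squalene and a chain of sterol intermediates. SREBP transcription factors, made by SREBF1 and SREBF2, are held in the endoplasmic reticulum by SCAP and the INSIG proteins when sterols are plentiful, and are released to drive sterol and fatty acid synthesis genes when sterols run low. LXR receptors respond to oxidised sterols and drive genes of sterol export and of limited sterol uptake.

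Total counts per library ran from 10641567 to 11777684, so that 0 counts in a library are compatible with as much as 0.255 to 0.282 CPM, the counts scaled to a common library size (counting error only). The markers CD34, at 9135 to 11444 counts per library in KG1A and 0 to 14 in U937, and LYZ, AZU1, CD33 and CD4, high in U937 alone, went with the labels. MPO was at 4 to 7 counts in U937, and KG1A also held the T cell transcript CD3D at 1104 to 1415 counts. The summed level of the 5 U937 markers rose from 563 to 602 in the DMSO libraries of U937 to 901 to 926 CPM with NEL, and that of 3 B cell markers from 9.84 to 13.7 to 27.0 to 31.8 CPM. The part of these shifts in the results for U937 was not tested, and in bulk RNA fewer cells of a type and less RNA per cell cannot be told apart. Within every group, libraries 1 and 3 were closest to each other and so were 2 and 4. The chi-squared distance per gene was 1.26 to 1.98 within these sets, against 3.88 to 8.47 between them. No label says what the numbers stand for or that libraries came from separate cultures. P-values then measure only the spread between these libraries. Fits with the library number as block, an odd-even covariate or 1 set alone leave out the spread between these sets. So do fits of sums of libraries 1 and 2, and 3 and 4, since each sum holds 1 library of each set. A pass in such fits is no separate check on that spread. Each of the 21 members called in KG1A and the 25 called in U937 kept its sign whether libraries 1 and 3 or libraries 2 and 4 were fitted alone. That result was nearly fixed in advance, since the members were called on the same libraries. Apart from SCAP and FASN in KG1A and SREBF2 in U937, their NEL and DMSO libraries did not overlap.

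Of the 33 members tested in KG1A, 13 rose with NEL, 8 fell and 12 did not pass the test (edgeR's quasi-likelihood test, adjusted p under 0.05 after Benjamini-Hochberg adjustment over all genes). Among all 14250 genes tested in KG1A, 23.6% were called higher and 23.6% lower, against 39.4% and 24.2% of the members. The median log2 fold change of the members was 0.09, against -0.00 for all genes. In U937, 29 members had enough counts to be tested, of which 14 rose, 11 fell and 4 did not pass. All 14390 genes tested there gave 34.6% called higher and 34.7% lower, against 48.3% and 37.9% of the members tested, and the members' median was -0.04 against -0.00. HSD17B7, ABCA1, ABCG1 and ELOVL6 were at or near 0 in U937 and were not tested there. In these fits the members' shares called lower were close to those of all genes, and their shares called higher were above them. The members were chosen with earlier results of these data known, so these shares are descriptions only. With the replicate number as a block, 17 members were higher and 12 lower in KG1A, and 14 and 13 in U937. All genes then gave 4111 higher and 4235 lower in KG1A, and 5404 higher and 5467 lower in U937. With limma-trend on log2(RPKM + 0.5) instead, the split in KG1A was 17 members higher and 4 lower, and 4106 genes higher and 2263 lower where the counts gave 3367 and 3362.

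Across the lines, 9 of the 29 members tested in both rose in both (HMGCS1, MVD, IDI1, FDPS, MSMO1, EBP, SC5D, STARD4 and FADS1), where 11.7% of the 12590 genes tested in both did. The 5 members that fell in both lines were TM7SF2, INSIG1, SREBF1, SCAP and FASN, against 12.6% of all genes. A further 5 moved in opposite directions, against 11.1% of all genes: NSDHL, NPC1 and ACLY rose in KG1A and fell in U937, and FDFT1 and SREBF2 fell in KG1A and rose in U937. An interaction test over all 16 libraries asked whether the lines differed in their response, and it was passed by 21 of these 29 members. The NEL effect was higher in U937 for 10 and lower for 11. All 16117 genes of that fit gave 21.1% higher and 26.3% lower, but they were not limited to genes tested in both lines, as the members were. For all genes that split was 3404 higher and 4239 lower, and with the DESeq2 test 4015 higher and 3333 lower, while the members were 10 and 11 under both.

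**Figure D1:**
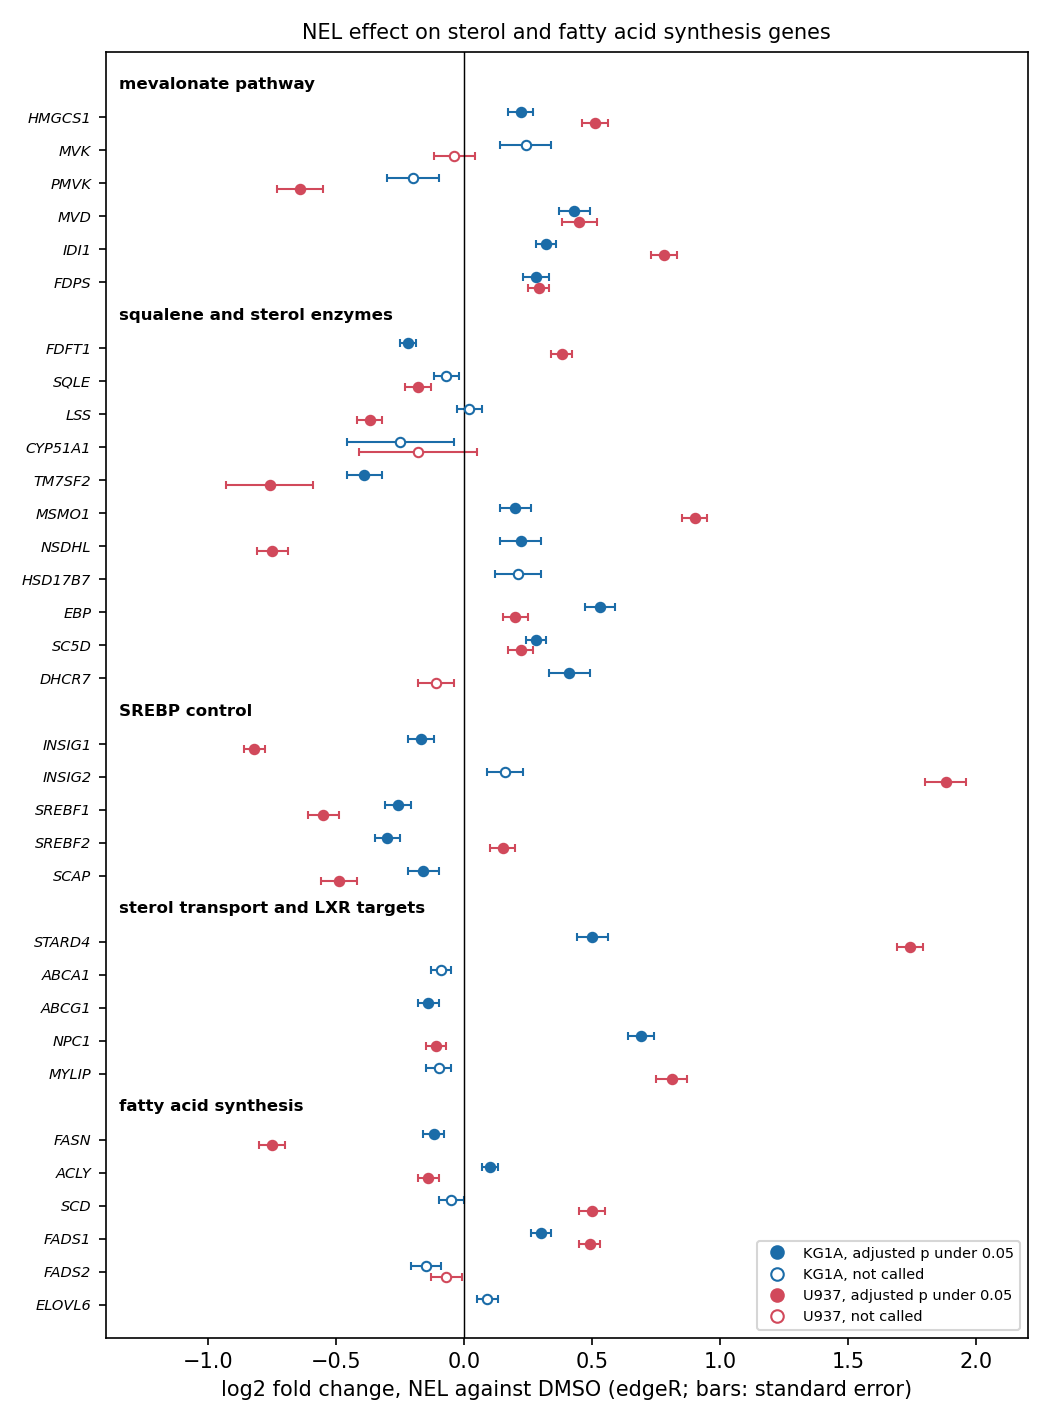
Log2 fold change of NEL against DMSO for each member by role, in KG1A (blue) and U937 (red); filled points had an adjusted p under 0.05 and bars are standard errors. INSIG2 (1.88) and STARD4 (1.74) in U937 lie farthest right, and INSIG1 in U937 (-0.82) farthest left.

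Promoter sequences are shown for 6 members on which these results turn: the INSIG pair, which moved in opposite directions in U937, STARD4 and MSMO1, which rose in both lines, and SREBF2 and NSDHL, which moved in opposite directions between the lines. Each is the 200 bases before an annotated start in RefSeq (GRCh38.p14), 5′ to 3′ on the gene's strand. Capitals mark CCAAT on either strand (CCAAT or ATTGG), the box bound by NF-Y, and TCACNCCAC, a form of the sterol regulatory element bound by SREBP (N is any base, either strand).
INSIG1, chr7:155297678-155297877, plus strand: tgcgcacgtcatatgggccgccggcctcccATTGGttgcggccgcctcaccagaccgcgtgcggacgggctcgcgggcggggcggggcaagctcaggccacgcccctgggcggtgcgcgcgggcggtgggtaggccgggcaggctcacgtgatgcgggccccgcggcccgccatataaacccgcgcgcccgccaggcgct
INSIG2, chr2:118088271-118088470, plus strand: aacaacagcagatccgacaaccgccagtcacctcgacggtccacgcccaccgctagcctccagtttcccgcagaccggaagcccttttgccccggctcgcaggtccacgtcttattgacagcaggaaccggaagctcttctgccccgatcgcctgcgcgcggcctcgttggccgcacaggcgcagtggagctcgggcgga
SREBF2, chr22:41832905-41833104, plus strand: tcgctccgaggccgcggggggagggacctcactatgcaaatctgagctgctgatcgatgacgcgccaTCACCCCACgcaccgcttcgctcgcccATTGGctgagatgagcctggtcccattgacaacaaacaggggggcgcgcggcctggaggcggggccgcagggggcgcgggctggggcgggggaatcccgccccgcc
STARD4, chr5:111512536-111512735, minus strand: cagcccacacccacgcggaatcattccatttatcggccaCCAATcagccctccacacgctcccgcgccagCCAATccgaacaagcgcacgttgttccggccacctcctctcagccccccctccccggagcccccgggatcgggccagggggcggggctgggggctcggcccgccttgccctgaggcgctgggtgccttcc
MSMO1, chr4:165327469-165327668, plus strand: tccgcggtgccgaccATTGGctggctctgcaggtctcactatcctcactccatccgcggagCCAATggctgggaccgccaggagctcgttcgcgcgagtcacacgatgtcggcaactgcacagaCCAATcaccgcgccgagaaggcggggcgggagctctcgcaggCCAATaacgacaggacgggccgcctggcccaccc
NSDHL, chrX:152830863-152831062, plus strand: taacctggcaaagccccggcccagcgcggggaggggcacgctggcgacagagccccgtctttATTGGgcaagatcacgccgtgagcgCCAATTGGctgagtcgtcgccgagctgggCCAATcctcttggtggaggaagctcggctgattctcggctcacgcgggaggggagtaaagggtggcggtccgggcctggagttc
Among the 29 members with a promoter in the table, SREBF2 alone held TCACNCCAC in the 250 bases before a start, a form that 0.883% of all 35116 promoters and 1.09% of genes held. MSMO1 and NSDHL each held 4 CCAAT matches in the bases shown, with 2 of those in NSDHL overlapping as CCAATTGG, and STARD4 held 2, INSIG1 and SREBF2 1 each and INSIG2 0. CCAAT was found on either strand in 19 of the 29 members (65.5%), against 32% of all promoters and 37% of genes by any of their promoters. It was present in 8 of the 9 members that rose in both lines and in 2 of the 4 with a promoter that fell in both. GGGCGG, bound by Sp1, was present in 28 of 29 (96.6%), against 42.6% of all promoters and 46.2% of genes. These matches describe the letters in the window and are no evidence of binding. Only exact matches to TCACNCCAC were sought, so a missing match is no evidence that a sterol regulatory element is missing.

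Among the mevalonate enzymes, 4 of 6 rose in each line, HMGCS1, MVD, IDI1 and FDPS, and PMVK fell in U937. Of all genes, 23.6% were called higher in KG1A and 34.6% in U937. HMGCS1 makes HMG-CoA from acetoacetyl-CoA and acetyl-CoA at the head of the pathway. Its CPM was 122, 137, 134 and 141 in the DMSO libraries 1 to 4 of KG1A and 147, 159.5, 156 and 163 in its NEL libraries. In U937 the values were 65.1, 69.8, 66.3 and 77.5 with DMSO and 99.1, 100.3, 97.5 and 99.1 with NEL. All NEL libraries lay above all DMSO libraries of the same line. HMGCS1 overlaps a gene without a symbol over 1445 bases on the other strand. The log2 fold change was 0.22 ± 0.05, adjusted p = 0.00192 in KG1A and 0.51 ± 0.05, adjusted p = 1.19e-06 in U937, and the difference between the lines was 0.28 ± 0.07, adjusted p = 0.00352.

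IDI1 isomerises the isoprenoid unit made by MVD, and overlaps IDI2-AS1 over 4291 of its 9263 bases on the other strand. It was at 134, 136, 136 and 146 CPM in KG1A with DMSO and 166, 174, 174 and 179.7 with NEL. U937 held 89.5, 98.5, 94.4 and 104 CPM with DMSO and 169, 172, 158 and 161 with NEL. The groups did not overlap in either line, and the NEL libraries of U937 overlapped those of KG1A. IDI1 rose by a log2 fold change of 0.32 ± 0.04, adjusted p = 1.60e-05 in KG1A and 0.78 ± 0.05, adjusted p = 1.09e-08 in U937, and the rise was larger in U937 (0.44 ± 0.07, adjusted p = 8.37e-06). MVD, which decarboxylates mevalonate diphosphate, stood at 26.96, 25.3, 27.1 and 25.2 CPM in KG1A with DMSO and 36.3, 35.9, 35.4 and 33.7 with NEL. Its levels in U937 were 30.96, 32.6, 27.8 and 30.03 CPM with DMSO and 43.8, 39.3, 38.8 and 43.9 with NEL. The groups were again apart in both lines. MVD rose by 0.43 ± 0.06, adjusted p = 2.59e-05 in KG1A and 0.45 ± 0.07, adjusted p = 3.52e-05 in U937, and the difference between the lines was 0.02 ± 0.09 (adjusted p = 0.94). FDPS, which makes farnesyl diphosphate, rose by 0.28 ± 0.05 and 0.29 ± 0.04, with no groups overlapping and a difference between the lines of -0.00 ± 0.06. Reads of FDPS are uncertain, since it has pseudogene copies and overlaps RUSC1-AS1 on the other strand over 3804 bases.

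PMVK, the kinase that makes mevalonate diphosphate, was the mevalonate enzyme that fell. In U937 it was at 41.6, 50.2, 39.2 and 49.7 CPM with DMSO and 25.8, 32.7, 27.7 and 29.4 with NEL, and the groups did not overlap (-0.64 ± 0.09, adjusted p = 2.54e-05). In KG1A it was at 17.3, 20.5, 16.1 and 20.8 CPM with DMSO and 14.3, 17.3, 16.01 and 17.96 with NEL, with overlapping groups and a log2 fold change of -0.20 ± 0.10, adjusted p = 0.126. The fall differed between the lines (-0.46 ± 0.15, adjusted p = 0.0127). With the replicate number as a block PMVK passed in KG1A too (adjusted p = 0.0207), and it did so without KG1A DMSO library 3 (-0.26, adjusted p = 0.0478). MVK, the kinase before it, did not pass in either line (0.24 ± 0.10, adjusted p = 0.0544 in KG1A and -0.04 ± 0.08, adjusted p = 0.628 in U937). In KG1A it passed with the block (adjusted p = 0.004), without DMSO library 3 (0.29, adjusted p = 0.0413) and without NEL library 4 (0.31, adjusted p = 0.0161). The difference between the lines for MVK was -0.30 ± 0.13, adjusted p = 0.0601, and passed with the block (adjusted p = 0.00808).

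From squalene onwards, 5 of 11 enzymes rose and 2 fell in KG1A, and 4 of 10 tested rose and 4 fell in U937. Of all genes, 23.6% were called in each direction in KG1A, and 34.6% higher and 34.7% lower in U937. FDFT1, the squalene synthase that commits farnesyl diphosphate to sterols, moved in opposite directions. It fell in KG1A from 370.3, 360.5, 355 and 361 CPM with DMSO to 305, 309, 315 and 317 with NEL. In U937 it rose from 374, 373, 376 and 366 to 482, 484, 490.1 and 473 CPM. The DMSO libraries of the lines overlapped, whereas with NEL the lines lay far apart. The log2 fold change was -0.22 ± 0.03, adjusted p = 7.45e-05 in KG1A and 0.38 ± 0.04, adjusted p = 3.90e-07 in U937, and the difference 0.59 ± 0.04, adjusted p = 4.22e-10.

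NSDHL, which helps to remove the methyl groups at carbon 4 of the sterol ring, was the other enzyme of this branch that moved in opposite directions. Its CPM in KG1A was 14, 13.2, 14.3 and 12.98 with DMSO and 14.3, 15.6, 17.5 and 16.2 with NEL. Its CPM in U937 was 49.2, 50.8, 51.1 and 49.7 CPM with DMSO and 32.7, 29.8, 27.5 and 28.97 with NEL. The fall in U937 was clear of every DMSO library (-0.75 ± 0.06, adjusted p = 6.00e-08). The difference between the lines was the most negative of the members tested in both (-0.98 ± 0.10, adjusted p = 2.98e-08). The rise in KG1A was small (0.22 ± 0.08, adjusted p = 0.0436), and NEL library 1 lay only just above the highest DMSO library. That rise was lost when DMSO library 1, 2 or 4 was left out (log2 0.23, 0.20 and 0.20, adjusted p = 0.0614, 0.0974 and 0.106), or NEL library 2, 3 or 4 (0.23, 0.17 and 0.21, adjusted p = 0.0643, 0.13 and 0.0845). It also missed the threshold in the odd-numbered (adjusted p = 0.281) and even-numbered libraries alone (adjusted p = 0.052).

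MSMO1, the oxidase that acts on the same methyl groups, rose in both lines and more in U937. It was at 24.6, 24.6, 26.5 and 25.9 CPM in KG1A with DMSO and 30.1, 27.4, 30.6 and 28.97 with NEL. U937 held 28.6, 29.9, 29.3 and 29.5 CPM with DMSO and 51.7, 54.6, 56.7 and 55.6 with NEL. No NEL library reached down to a DMSO library of its line, and the lines were close without NEL. The log2 fold change was 0.20 ± 0.06, adjusted p = 0.0168 in KG1A and 0.90 ± 0.05, adjusted p = 2.69e-09 in U937, with a difference of 0.69 ± 0.08, adjusted p = 1.15e-07. In KG1A the even-numbered libraries alone did not pass (0.15, adjusted p = 0.158). Its promoter is the one shown above with 4 CCAAT matches spread over the window, as is that of NSDHL, which fell in U937.

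EBP, the isomerase that moves the double bond in the sterol ring, and DHCR7, which reduces 7-dehydrocholesterol to cholesterol, rose most in KG1A among the sterol enzymes. EBP was at 33.6, 36.7, 32.2 and 32.5 CPM in KG1A with DMSO and 46.4, 51.4, 48.04 and 50.5 with NEL. U937 libraries gave 141, 153, 139.7 and 152 and 168, 172, 159 and 169.9 CPM. Both rises cleared the spread of the libraries, by 0.53 ± 0.06, adjusted p = 3.97e-06 in KG1A and 0.20 ± 0.05, adjusted p = 0.00149 in U937, and that of KG1A was the larger on the log2 scale (difference -0.35 ± 0.07, adjusted p = 3.21e-04). DHCR7 was at 166, 134, 159 and 136 CPM in KG1A with DMSO and 217, 183, 213 and 181 with NEL, with libraries 1 and 3 above 2 and 4 in both groups and no overlap (0.41 ± 0.08, adjusted p = 4.10e-04). In U937 it was at 122, 109, 116 and 98.7 CPM with DMSO and 112, 91.6, 111 and 97.5 with NEL, and the groups overlapped (-0.11 ± 0.07, adjusted p = 0.19). There DHCR7 passed with the replicate block (-0.11, adjusted p = 0.00541) and without DMSO library 4 (-0.17, adjusted p = 0.0414). The lines differed (-0.54 ± 0.12, adjusted p = 6.43e-04).

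SC5D, the desaturase just before DHCR7, rose by 0.28 ± 0.04 in KG1A and 0.22 ± 0.05 in U937, with no overlap of groups, though the odd-numbered libraries of U937 alone did not pass (0.12, adjusted p = 0.101). LSS, which closes the ring to lanosterol, was at 68.3, 68.3, 62.96 and 65.3 CPM in KG1A with DMSO and 68.8, 64.05, 69.1 and 68.6 with NEL. In U937 it fell from 98.4, 97.1, 97.1 and 94.8 to 76.1, 70, 78.5 and 74.7 CPM. The fall in U937 left no overlap (-0.37 ± 0.05, adjusted p = 5.38e-06), in KG1A the groups overlapped (0.02 ± 0.05, adjusted p = 0.707), and the lines differed (-0.40 ± 0.06, adjusted p = 1.40e-05). TM7SF2, a sterol reductase, was lower with NEL in both lines. It was at 27.8, 25.9, 27.7 and 24.8 CPM in KG1A with DMSO and 21.6, 20.03, 20.1 and 19.9 with NEL. Much lower levels were seen in U937, at 6.89, 5.67, 6.88 and 5.32 CPM with DMSO and 3.03, 2.98, 3.57 and 4.93 with NEL. Every NEL library was below every DMSO library of its line, with log2 fold changes of -0.39 ± 0.07, adjusted p = 2.52e-04 and -0.76 ± 0.17, adjusted p = 0.00111. In U937 the even-numbered libraries alone did not pass (-0.46, adjusted p = 0.0695). The difference between the lines for TM7SF2 did not pass (-0.39 ± 0.17, adjusted p = 0.0636). It passed with the block (adjusted p = 0.0338), with the covariate for odd and even numbers (adjusted p = 0.0324) and in sums of libraries (adjusted p = 0.0336). These fits leave out the spread between odd-numbered and even-numbered libraries. The difference also passed without U937 DMSO library 4 (-0.46, adjusted p = 0.0345) or NEL library 4 (-0.57, adjusted p = 0.0049). It passed in the odd-numbered libraries alone (-0.65, adjusted p = 0.0136), but not in the even-numbered ones (-0.13, adjusted p = 0.726).

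SQLE, the epoxidase that opens the sterol branch, fell slightly in U937, from 217 to 248 CPM with DMSO to 194 to 211 with NEL (-0.18 ± 0.05, adjusted p = 0.0045), a call lost by limma-trend on log2(RPKM + 0.5) (-0.09, adjusted p = 0.125). In KG1A it was at 371 to 420 CPM with DMSO and 365 to 399 with NEL, which did not pass (-0.07 ± 0.05, adjusted p = 0.227). SQLE passed there with the block (adjusted p = 0.00342), with the covariate for odd and even numbers (adjusted p = 0.0101), in sums of libraries (adjusted p = 0.0464) and in the odd-numbered libraries alone (-0.11, adjusted p = 0.00868). All of these fits leave out the spread between odd-numbered and even-numbered libraries. The lines differed for SQLE by -0.12 ± 0.07, adjusted p = 0.177, which the block also took past the threshold (adjusted p = 0.00385). HSD17B7, the ketosteroid reductase of the same methyl removal as NSDHL, was at 11.4 to 12.2 CPM in KG1A with DMSO and 12.6 to 15.3 with NEL. The groups did not overlap, but HSD17B7 did not pass (0.21 ± 0.09, adjusted p = 0.0644). It passed with the block (adjusted p = 0.0395), with a covariate for odd and even library numbers (adjusted p = 0.0427), without NEL library 4 (0.24, adjusted p = 0.0428) and by limma-trend on log2(RPKM + 0.5) (0.23, adjusted p = 0.0155) or log2(RPKM + 0.1) (0.26, adjusted p = 0.0158). Its reads are uncertain, since pseudogene copies of it exist. CYP51A1, the lanosterol demethylase, was at 1.51 to 4.82 CPM over all 16 libraries and passed in neither line. The gene spans in the deposited table place LRRD1 over 30794 of its 30802 bases on the same strand, so its counts are uncertain.

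Of the 5 genes of SREBP control, 2 rose and 3 fell in U937, and 4 fell in KG1A, where 23.6% of all genes were called lower (34.6% higher and 34.7% lower in U937). INSIG1 and INSIG2 code for the paired proteins that retain SCAP and the SREBPs in the endoplasmic reticulum. INSIG1 (hg19 chr7:155089486-155101945) was at 84.3, 81.6, 89.6 and 80.2 CPM in KG1A with DMSO and 77.9, 71.7, 77.2 and 72.8 with NEL. In U937 it was at 410.5, 385, 400.2 and 404 CPM with DMSO and 234, 222, 235 and 215 with NEL. U937 stayed above KG1A in every library, and the NEL libraries of each line lay below its DMSO libraries. The log2 fold change of INSIG1 was -0.17 ± 0.05, adjusted p = 0.00914 in KG1A and -0.82 ± 0.04, adjusted p = 1.03e-09 in U937, and the fall was larger in U937 (-0.66 ± 0.06, adjusted p = 1.51e-08). By limma-trend on log2(RPKM + 0.5), the fall in KG1A did not pass (-0.10).

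INSIG2 (hg19 chr2:118846028-118868573) went the other way in U937. Its values were 17.99, 23.3, 18.1 and 22.6 CPM in U937 with DMSO and 68.9, 76.6, 74.2 and 80.5 with NEL. KG1A held 42.8, 50.5, 42.6 and 50.7 CPM with DMSO and 49.99, 57.8, 49.05 and 52.2 with NEL. The rise in U937 was 3.67-fold, with all NEL libraries far above all DMSO libraries, and it took U937 from below KG1A to above it. The log2 fold change was 1.88 ± 0.08, adjusted p = 2.31e-10 in U937 and 0.16 ± 0.07, adjusted p = 0.0906 in KG1A, where the groups overlapped. The difference was the largest of the members tested in both lines (1.71 ± 0.12, adjusted p = 1.18e-10). In KG1A the rise passed with the replicate block (adjusted p = 0.00211), in the odd-numbered libraries alone (0.21, adjusted p = 0.00817) and without DMSO library 4 (0.20, adjusted p = 0.0479). It did not pass in the even-numbered libraries alone (0.12, adjusted p = 0.141). The block and the fits of odd or even numbers alone leave out the spread between these sets. The window shown for INSIG2 held no CCAAT and no TCACNCCAC.

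**Figure D2:**
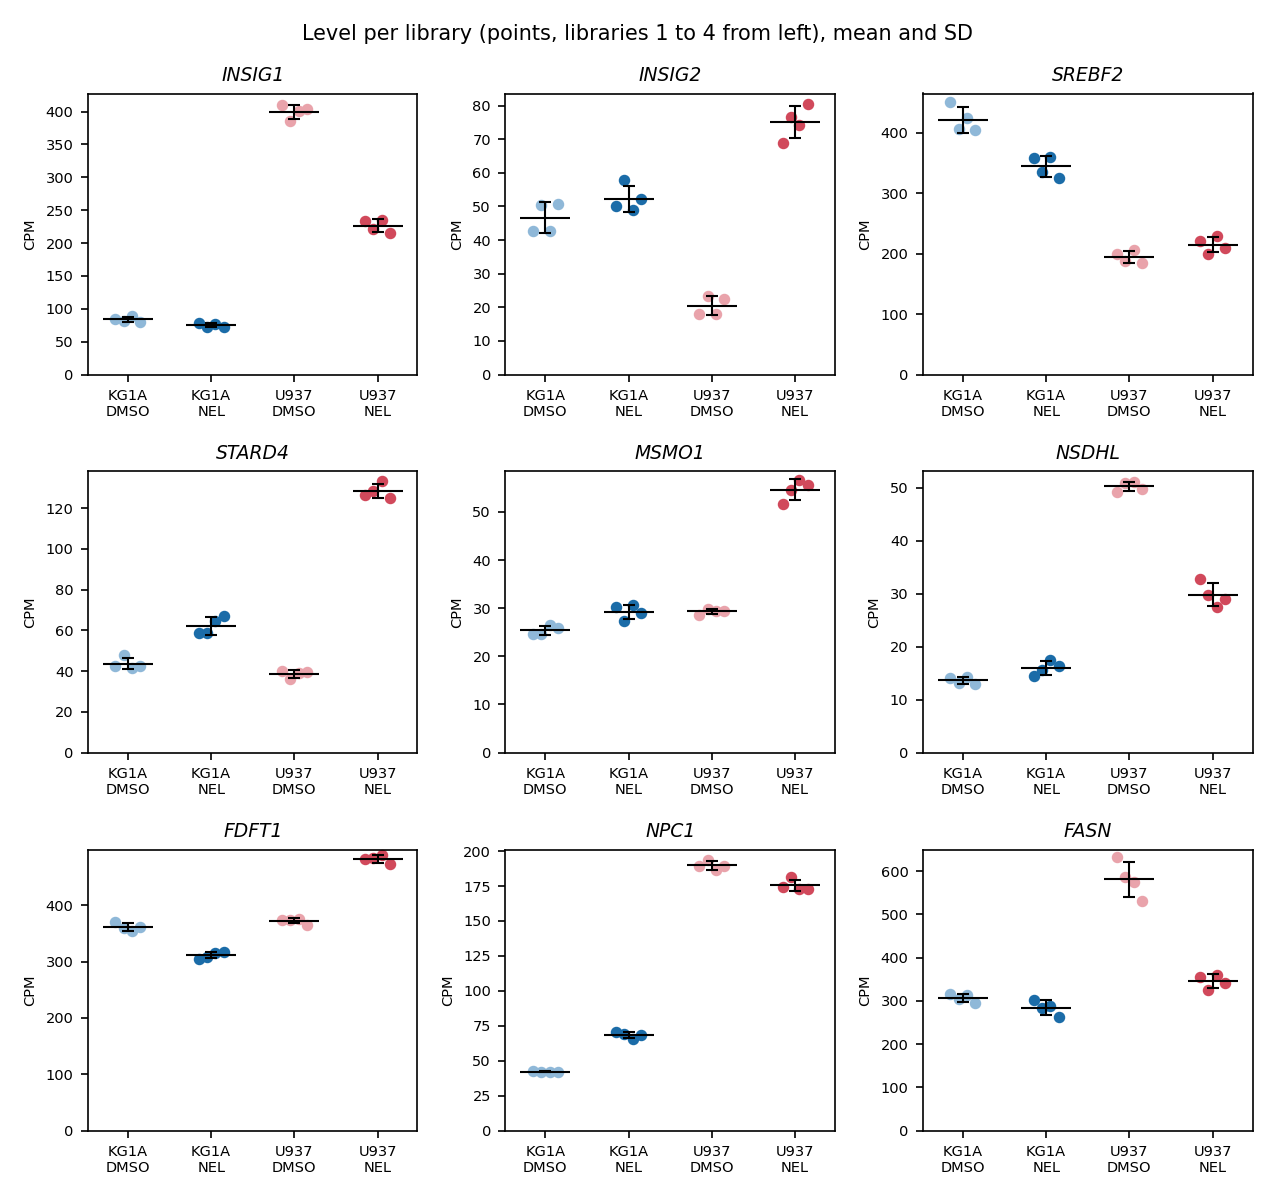
CPM per library (points, libraries 1 to 4 from the left) with mean and SD (bars) for 9 members in the 4 groups, each panel on its own linear axis from 0. In U937 INSIG1 is lower and INSIG2 and STARD4 are higher with NEL in all libraries, while FDFT1, NSDHL and NPC1 move in opposite directions in the lines.

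SREBF1 and SREBF2 encode the SREBP factors, SREBF1 chiefly the driver of fatty acid genes and SREBF2 that of sterol genes. SREBF1 was at 88.2, 85.2, 82.7 and 83.5 CPM in KG1A with DMSO and 78.7, 68.5, 70.8 and 66.97 with NEL. In U937 it stood at 124, 110.4, 115 and 114 CPM with DMSO and 82.5, 71.8, 84.7 and 77.6 with NEL. It fell without overlap in both lines (-0.26 ± 0.05, adjusted p = 9.32e-04 in KG1A and -0.55 ± 0.06, adjusted p = 9.98e-07 in U937) and more in U937 (-0.30 ± 0.08, adjusted p = 0.00362).

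SREBF2 was at 451, 405, 423 and 404 CPM in KG1A with DMSO and 358, 334, 359 and 325 with NEL. Its U937 values were 199, 187, 206 and 184 CPM with DMSO and 222, 199.9, 228 and 208 with NEL. The fall in KG1A left a gap between the groups (-0.30 ± 0.05, adjusted p = 9.53e-05), while in U937 the groups overlapped, with libraries 1 and 3 above 2 and 4 under both treatments (0.15 ± 0.05, adjusted p = 0.0211). The rise in U937 missed the threshold without DMSO library 2 or 4 (0.12 and 0.12, adjusted p = 0.0728 and 0.071) and without NEL library 1 or 3 (0.13 and 0.12, adjusted p = 0.0587 and 0.0772). The difference between the lines was 0.43 ± 0.07, adjusted p = 3.03e-05. SREBF2 is the member whose promoter above holds a match to TCACNCCAC.

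SCAP, the escort that carries SREBPs to the Golgi, was at 129.8, 117, 127 and 112 CPM in U937 with DMSO and 91.3, 81.1, 95.6 and 78.8 with NEL. KG1A held 140.0, 122, 136 and 127 CPM with DMSO and 129, 111, 123 and 109.7 with NEL. The groups were apart in U937 (-0.49 ± 0.07, adjusted p = 1.60e-05) and overlapped in KG1A (-0.16 ± 0.06, adjusted p = 0.0396), with a difference of -0.34 ± 0.09, adjusted p = 0.00493. The call in KG1A was lost without DMSO library 1 or 3 (-0.12 and -0.14, adjusted p = 0.115 and 0.0964) and without NEL library 2 or 4 (-0.13 and -0.12, adjusted p = 0.114 and 0.112).

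Among the genes of sterol transport and the LXR response, STARD4, which carries cholesterol between membranes, rose in both lines. It was at 42.5, 47.8, 41.7 and 42.7 CPM in KG1A with DMSO and 58.6, 58.7, 64.4 and 66.97 with NEL. In U937 it went from 39.9, 35.9, 39.1 and 39.6 CPM with DMSO to 127, 128, 133 and 125 with NEL, a 3.33-fold rise. U937 lay slightly below KG1A without NEL, and every NEL library was above every DMSO library in both. STARD4 rose by 0.50 ± 0.06, adjusted p = 1.02e-05 on the log2 scale in KG1A and 1.74 ± 0.05, adjusted p = 3.36e-12 in U937, with a difference of 1.22 ± 0.08, adjusted p = 3.28e-11. It overlaps STARD4-AS1 over 365 bases on the other strand.

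NPC1, the lysosomal protein that exports cholesterol from lysosomes, rose most of all members in KG1A. It was at 42.4, 42.1, 42.2 and 42.2 CPM in KG1A with DMSO and 70.7, 69.1, 65.2 and 68.3 with NEL. U937, where it was higher, held 189, 194, 187 and 189 CPM with DMSO and 174, 181, 173 and 173 with NEL. The rise in KG1A was many times the spread of the libraries (0.69 ± 0.05, adjusted p = 3.44e-08), and the fall in U937 was small though without overlap (-0.11 ± 0.04, adjusted p = 0.0178). With upper quartile factors or limma-trend the fall in U937 did not pass, and the difference between the lines was -0.81 ± 0.05, adjusted p = 3.81e-11. RMC1 overlaps NPC1 over 25599 bases on the other strand.

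MYLIP, an LXR target that marks lipoprotein receptors for breakdown, was at 42.2, 44.8, 36.8 and 40.7 CPM in U937 with DMSO and 69.2, 69.8, 75.6 and 72.7 with NEL. In KG1A it was at 50.6, 54.2, 51.5 and 55.2 CPM with DMSO and 50.3, 50.5, 50.8 and 47.4 with NEL. The rise in U937 left the groups well apart (0.81 ± 0.06, adjusted p = 4.17e-08), in KG1A they overlapped (-0.10 ± 0.05, adjusted p = 0.134), and the lines differed (0.89 ± 0.08, adjusted p = 4.24e-09). ABCG1, an LXR target that exports sterols, was at 75.2, 73.8, 80.1 and 73.7 CPM in KG1A with DMSO and 68.2, 68.02, 71.9 and 67.4 with NEL, a small fall (-0.14 ± 0.04, adjusted p = 0.0168) that was lost without DMSO library 3 (-0.12, adjusted p = 0.0569) and in the even-numbered libraries alone (-0.13, adjusted p = 0.0586). ABCA1, the other exporter, was at 66.7 to 71.5 CPM with DMSO and 63.2 to 67.3 with NEL in KG1A (-0.09 ± 0.04, adjusted p = 0.107), and passed with the replicate block (adjusted p = 0.0457) but not with a covariate for odd and even library numbers (adjusted p = 0.0513) or in sums of libraries (adjusted p = 0.0782). In U937 both exporters were scarce: over the 4 libraries ABCA1 had 6 counts with DMSO and 20 with NEL, and ABCG1 12 and 42. The ratios of NEL to DMSO, per library total, were 3.43 (95% counting interval 1.33 to 10.5) for ABCA1 and 3.61 (1.86 to 7.53) for ABCG1. ABCG1 had 1 to 4 counts per library with DMSO and 7 to 14 with NEL, without overlap, and ABCA1 0 to 2 and 2 to 8. Both were below the filter on low counts, and edgeR without that filter called both higher in U937 (1.70 ± 0.45, adjusted p = 0.00198 for ABCG1 and 1.59 ± 0.65, adjusted p = 0.0469 for ABCA1).

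Of the fatty acid genes, 2 of 6 rose and 1 fell in KG1A, and 2 of 5 tested rose and 2 fell in U937, against 23.6% of all genes in each direction in KG1A and 34.6% higher and 34.7% lower in U937. FASN, which builds palmitate, was at 632, 585, 576 and 530.5 CPM in U937 with DMSO and 355, 325, 360.2 and 342 with NEL. In KG1A it was at 316, 304, 313 and 295 CPM with DMSO and 303, 284, 289 and 263 with NEL. The fall in U937 was clear of the spread (-0.75 ± 0.05, adjusted p = 2.67e-08), the groups overlapped in KG1A (-0.12 ± 0.04, adjusted p = 0.0422), and the lines differed (-0.64 ± 0.07, adjusted p = 1.81e-07). The call in KG1A was lost without DMSO library 1, 2 or 3 (-0.11, -0.12 and -0.11, adjusted p = 0.0979, 0.0636 and 0.0915) and without NEL library 2, 3 or 4 (-0.12, -0.12 and -0.08, adjusted p = 0.0741, 0.0619 and 0.13).

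ACLY, which supplies acetyl-CoA from citrate, was at 208, 199.5, 207 and 201 CPM in KG1A with DMSO and 224, 224, 217 and 217 with NEL. In U937 it was at 288, 282, 289 and 292 CPM with DMSO and 265, 256, 259 and 264 with NEL. The groups were apart in both lines, though the changes were under 10% of the level: 0.10 ± 0.03, adjusted p = 0.0215 in KG1A and -0.14 ± 0.04, adjusted p = 0.00336 in U937, with a difference of -0.25 ± 0.05, adjusted p = 8.03e-05. The fall in U937 was lost with upper quartile factors (-0.08, adjusted p = 0.0549) and by limma-trend on log2(RPKM + 0.5) (-0.05, adjusted p = 0.174). The rise in KG1A was lost without DMSO library 2 or 4 (0.09 and 0.10, adjusted p = 0.066 and 0.0586), without NEL library 2 (0.10, adjusted p = 0.056) and in the odd-numbered libraries alone (0.08, adjusted p = 0.0793). SCD, the desaturase that makes oleate, was at 1379, 1279, 1420.5 and 1339 CPM in U937 with DMSO and 1996, 1844, 1971 and 1841 with NEL. KG1A held 599.5, 549, 589.7 and 552 CPM with DMSO and 572, 532, 593 and 532 with NEL. All NEL libraries of U937 lay above its DMSO libraries (0.50 ± 0.05, adjusted p = 2.82e-07), the groups of KG1A overlapped (-0.05 ± 0.05, adjusted p = 0.445), and the lines differed (0.54 ± 0.07, adjusted p = 6.28e-07).

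FADS1 and FADS2, the neighbouring desaturases of polyunsaturated fatty acids, differed in their calls. FADS1 was at 472, 437, 462 and 446 CPM in KG1A with DMSO and 583, 537, 583 and 545 with NEL. Its U937 levels were 269, 273, 280.2 and 261 CPM with DMSO and 376, 376, 397 and 373 with NEL. It rose without overlap in both lines (0.30 ± 0.04, adjusted p = 3.21e-05 and 0.49 ± 0.04, adjusted p = 7.71e-08) and slightly more in U937 (0.18 ± 0.06, adjusted p = 0.00868). FADS2 was at 958, 839, 931 and 829.5 CPM in KG1A with DMSO and 869.6, 760.1, 852 and 730.1 with NEL, and at 331, 291, 324 and 289 and 312, 275, 311 and 276 CPM in U937. Libraries 1 and 3 exceeded 2 and 4 in all groups, the groups overlapped, and FADS2 did not pass in KG1A (-0.15 ± 0.06, adjusted p = 0.0518) or in U937 (-0.07 ± 0.06, adjusted p = 0.311).

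With the replicate number as a block FADS2 was called lower in both lines (-0.15, adjusted p = 2.65e-12 in KG1A and -0.07, adjusted p = 0.0144 in U937). The difference between the lines for FADS2 was 0.07 ± 0.09, adjusted p = 0.549 and, with the block, 0.08 (adjusted p = 0.0495), which the sums of libraries 1 and 2, and 3 and 4, did not keep (adjusted p = 0.274). In KG1A it also passed without DMSO library 2 or 4 (-0.18 and -0.19, adjusted p = 0.0383 and 0.0334) and without NEL library 1 or 3 (-0.19 and -0.18, adjusted p = 0.0187 and 0.0381). By the gene spans in the deposited table FADS1 (hg19 chr11:61567099-61596790, minus strand) lies wholly inside the span of FADS2 (chr11:61560452-61634826, plus strand). The kit kept strand, but whether the counting used it is not given in the sources used here, so reads of the pair are uncertain. FEN1 also overlaps FADS2, over 4265 bases on the same strand, which adds to the uncertainty of FADS2. ELOVL6, which lengthens palmitate, was at 93.8 to 103 CPM in KG1A with DMSO and 101 to 108 with NEL (0.09 ± 0.04, adjusted p = 0.103), passed with the block (adjusted p = 0.014), and had 5 and 8 counts over the DMSO and the NEL libraries of U937.

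Without NEL the lines differed in most members. With DMSO, 12 of 33 members were higher in U937 and 18 lower, and MVD, FDFT1 and MSMO1 did not pass, where 43% of all 15181 genes were called higher and 43.4% lower. The members' median log2 difference was -0.26, against -0.00 for all genes, and their median absolute difference 0.85 against 0.84. INSIG1 (2.17 ± 0.05, adjusted p = 5.14e-17), NPC1 (2.08 ± 0.04, adjusted p = 3.51e-17), EBP (2.03 ± 0.05, adjusted p = 1.49e-15) and NSDHL (1.80 ± 0.06, adjusted p = 4.52e-14) were the most raised in U937. TM7SF2 (-2.18 ± 0.10, adjusted p = 1.44e-12), FADS2 (-1.61 ± 0.06, adjusted p = 9.78e-14) and SC5D (-1.39 ± 0.06, adjusted p = 2.83e-13) were the most lowered among members tested in both lines.

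A further 4 members, all called lower in U937, were at or near 0 there. HSD17B7 had 510 counts over the DMSO libraries of KG1A and 0 over those of U937, at least 181-fold higher in KG1A against 3 counts over the group. ELOVL6 had 4269 and 5 counts, a ratio of 907 per library total (95% counting interval 388 to 2796). ABCA1 had 2958 and 6 counts (524, interval 240 to 1429), and ABCG1 3258 and 12 (289, interval 165 to 559). CYP51A1 was also called lower in U937 (-0.62 ± 0.24, adjusted p = 0.0209), but not without KG1A DMSO library 1 (-0.46, adjusted p = 0.0899) or U937 DMSO library 4 (-0.44, adjusted p = 0.0783). Counts of CYP51A1 are uncertain in both lines, since LRRD1 overlaps nearly all of it on the same strand.

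Levels of different genes can be set side by side per exon length, in the RPKM values (counts per length of exons and library total). SCD led in both lines without NEL, at 105 ± 4.16 RPKM in KG1A and 243 ± 9.86 in U937 (SD, n = 4). In KG1A it was followed by SQLE at 90.4 ± 5.38, FADS2 at 79.1 ± 5.24 and FDFT1 at 68.2 ± 0.86 RPKM, and the ranges of SQLE (84.7 to 95.9) and FADS2 (74.5 to 84.2) nearly met. In U937 the next were INSIG1 at 106 ± 2.71 and FDFT1 at 69.0 ± 1.09 RPKM, and FASN at 62.4 ± 4.79, whose range of 56.6 to 68.2 overlapped that of FDFT1 (67.4 to 69.7). INSIG1 ranked the thirteenth in KG1A, at 22.6 ± 1.09 RPKM. CYP51A1, at 0.867 ± 0.229 RPKM, was the lowest member in KG1A by these counts, which are uncertain because LRRD1 overlaps it on the same strand.

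**Figure D3:**
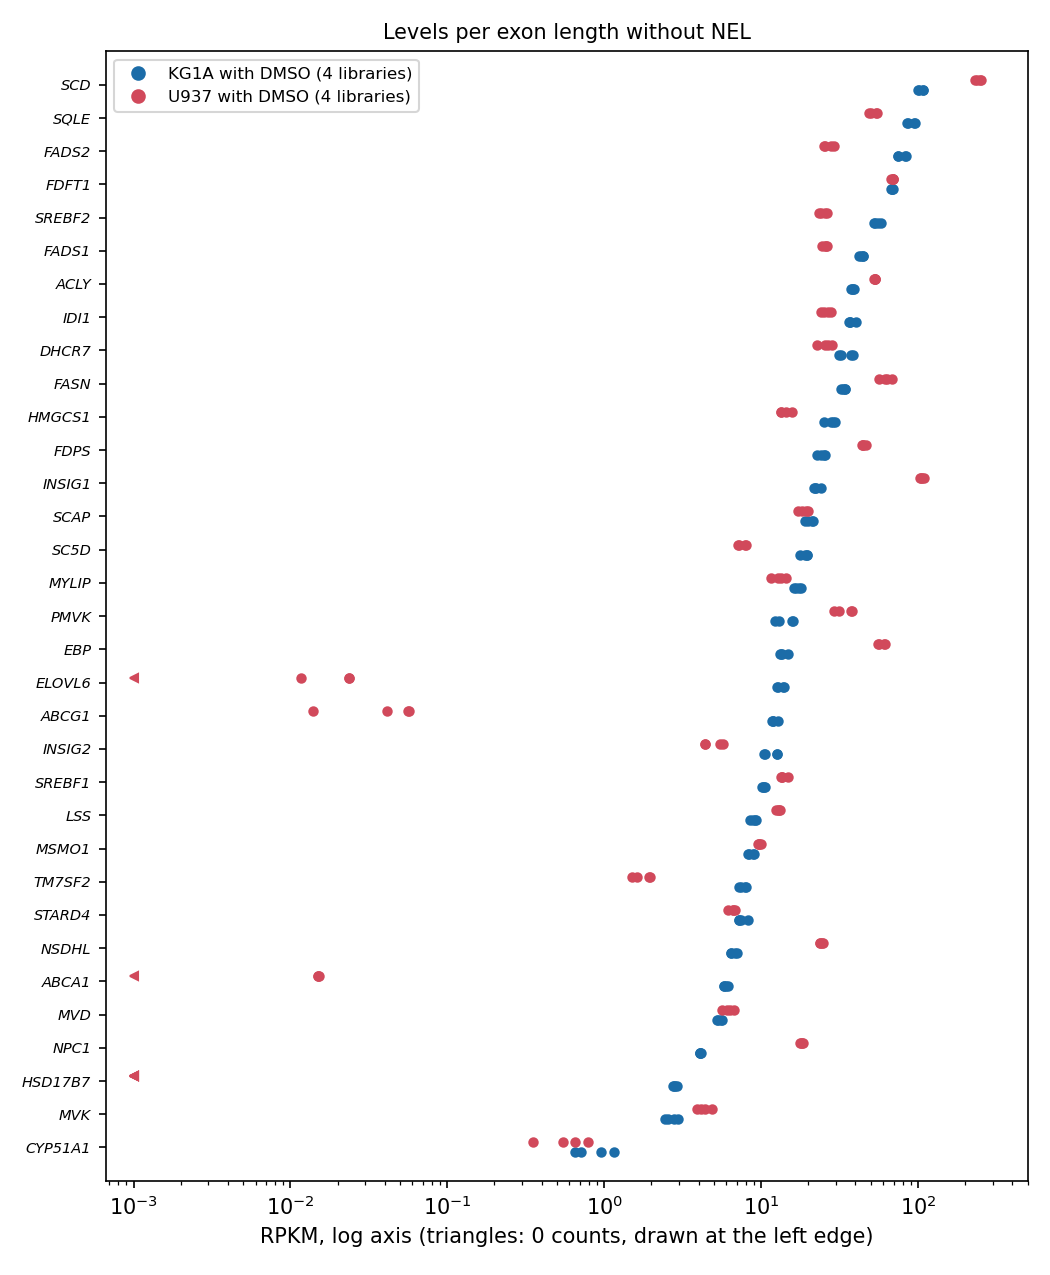
RPKM of each member in the DMSO libraries of KG1A (blue) and U937 (red) on a log axis, ordered by the mean in KG1A; points are libraries and triangles mark 0 counts. SCD is the highest in both lines, INSIG1 stands at 106 RPKM in U937 against 22.6 in KG1A, and ELOVL6, ABCG1, ABCA1 and HSD17B7 lie far to the left in U937.

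Genes of the adjoining pathways were taken from 5 lists drawn up by function. Of 15 genes of SREBP processing and sterol sensing, such as the site proteases and the ubiquitin ligases of this system, 3 rose and 5 fell in KG1A, and 6 rose and 5 fell in U937. Of 9 tested genes of acetyl-CoA supply and accessory sterol steps, 6 rose and 1 fell in KG1A, and 5 rose and 2 fell in U937. Of 14 genes of the isoprenoid branch (prenyl transferases, dolichol and ubiquinone synthesis), 4 rose and 5 fell in KG1A, and 0 rose and 9 fell in U937. Of the genes of LXR, sterol efflux and esterification, 4 of 12 tested rose and 3 fell in KG1A, and 5 of 13 rose and 3 fell in U937. Of those of fatty acid elongation and desaturation, 6 of 12 tested rose and 1 fell in KG1A, and 6 of 13 rose and 4 fell in U937. Among all genes, 23.6% were called higher and 23.6% lower in KG1A, and 34.6% higher and 34.7% lower in U937, and these counts are descriptions of the lists.

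Changes of at least 1 on the log2 scale within these lists were few. ACSS2, which makes acetyl-CoA from acetate, was at 29.7, 31, 33.6 and 29.9 CPM in U937 with DMSO and 81.4, 76.9, 74.6 and 77.6 with NEL (1.32 ± 0.05, adjusted p = 9.91e-11), and at 0.274 to 0.828 CPM in KG1A. ACACB, the mitochondrial acetyl-CoA carboxylase, went from 21.3, 19.1, 16.4 and 20.4 to 38.6, 43.6, 44.9 and 41.1 CPM in U937 (1.12 ± 0.08, adjusted p = 2.50e-08). The groups of both genes were far apart. ELOVL7, an elongase, rose from 5.28, 4.08, 6.08 and 5.40 to 11.3, 11.8, 11.5 and 12.6 CPM in U937 (1.18 ± 0.11, adjusted p = 5.57e-07) and by 0.82 ± 0.07 in KG1A. SCD5, a second stearoyl-CoA desaturase, rose in KG1A from 3.50, 3.89, 4.65 and 5.21 to 11.3, 8.47, 9.76 and 12.5 CPM (1.27 ± 0.15, adjusted p = 1.01e-05). ME1, which yields NADPH for lipid synthesis, and FADS3 rose in KG1A from low levels, 0.274 to 0.742 and 0.278 to 1.14 CPM with DMSO to 1.35 to 2.58 and 1.71 to 2.44 CPM with NEL, and ME1 had 0 counts in every U937 library, which allows up to 0.255 to 0.269 CPM in each.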

How the data were processed

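Per the labels' protocols, stranded libraries of polyadenylated RNA were made with a Kapa kit. The authors deposited raw counts per gene and RPKM values of the same 16 libraries, for which the submitters' processing notes name the build hg19 (GRCh37) and the tools HTSeq 0.11.2, TopHat2 and bcl2fastq 2.18.0.12. The sources used here give neither the annotation's name and release nor whether counting used strand. Gene spans and strands are those in the deposited table. By these spans 16 members overlap another gene, 4 of them on the same strand, and not every overlap is named above. The deposited RPKM equalled count per exon length and library total (largest relative deviation 1.86e-07), so it is no separate evidence. All columns matched a sample (0 left over), and 32562 of 34618 IDs matched a symbol, the others holding 0.878% of counts.

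Counts were tested with edgeR 4.0.16 in R 4.3.3 (TMM factors, quasi-likelihood test), after filterByExpr at its defaults (count 10, total 15). Adjustment was by Benjamini-Hochberg over all genes tested, with calls at an adjusted p under 0.05. The lines were fitted separately over 8 libraries each, and the difference between them over all 16. A value after ± beside a log2 fold change is its standard error, the fold change's size over the square root of the F statistic. The fit was checked on simulated counts. Intervals and floors (3 counts) cover counting error only.

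The members and lists were chosen with earlier results of these data known. Values in every library were given for up to 4 called members per role, line and direction with the largest change, for members called in opposite directions, and for the INSIG, SREBF and FADS pairs. Genes of the related lists were named at a log2 fold change of at least 1. The labels number libraries 1 to 4 in every group. Deviations from the group means of same-numbered libraries correlated at 0.102 to 0.143 in KG1A and 0.129 to 0.171 in U937, all above the 0.1 set for pairing, so the block was used as a paired fit. Different numbers of the same odd or even set correlated about as much (0.0925 to 0.123 in KG1A, 0.109 to 0.157 in U937), so the data show these sets and do not show pairing by single number, on which no label speaks. Between the lines with DMSO the lowest was 0.0931, and no pairing was taken. Alternatives were DESeq2 1.42.0 size factors or test, upper quartile factors, no filter or 1 CPM in 4 libraries, limma 3.58.1 (voom, or trend on log2(RPKM + 0.5) or log2(RPKM + 0.1)), the replicate block, a covariate for odd against even library numbers, each of these sets alone, sums of libraries, 1 model of all libraries, an adjusted p under 0.01, and leaving out each library. Promoters came from RefSeq (GRCh38.p14), of which 29 of 33 members had one. Figures used matplotlib 3.10.9 under Python 3.11.15.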

Additional observations from a re-analysis of the deposited data

Results flagged for a closer look

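A single library stood apart from the other 3 of its group in 10 of the 131 sets of 4 values examined (its gap to the nearest value took most of the range, by Dixon's 95% limit), and chance gives about 1 in 20. In KG1A with DMSO these were IDI1 in library 4 (146 CPM), SC5D in library 2 (100 CPM) and STARD4 in library 2 (47.7 CPM). In KG1A with NEL they were LSS in library 2 (64.1 CPM), TM7SF2 in library 1 (21.6 CPM), MYLIP in library 4 (47.4 CPM) and ELOVL6 in library 1 (101 CPM). In U937 they were ABCA1 in DMSO library 2 (0 CPM), and NPC1 in NEL library 2 (181 CPM) and FADS1 in NEL library 3 (397 CPM). The ABCA1 counts there were 2, 0, 2 and 2, so its flag came from tied counts near 0 and carries no weight.

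The NEL effect differed between U937 and KG1A by the interaction test for 21 of the members tested in both lines, given as the log2 fold change in U937 minus that in KG1A. It was higher in U937 for INSIG2 (1.71), STARD4 (1.22), MYLIP (0.89), MSMO1 (0.69), FDFT1 (0.59), SCD (0.54), IDI1 (0.44), SREBF2 (0.43), HMGCS1 (0.28) and FADS1 (0.18). It was lower in U937 for NSDHL (-0.98), NPC1 (-0.81), INSIG1 (-0.66), FASN (-0.64), DHCR7 (-0.54), PMVK (-0.46), LSS (-0.40), EBP (-0.35), SCAP (-0.34), SREBF1 (-0.30) and ACLY (-0.25).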

How the results depend on the processing

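Of 2746 values of members under the alternatives, 2607 kept their direction and side of the threshold, 73 lost and 56 gained a call, and 10 changed sign, all 10 in members without a call. Of 97 calls of members, 81 held under every alternative run. The members called lower in KG1A, 8 in all, were 4 by limma-trend on RPKM with either pseudocount, and the cause was not tested. They were 5 at an adjusted p under 0.01, a stricter threshold that can only lower a count. All genes called lower in KG1A went from 3362 to 2263 and 2250 by limma-trend, and to 2389 at that threshold. Signs changed for LSS in KG1A (-0.02 in the even-numbered libraries, -0.002 to 0.05 with each library left out, the sign changing without DMSO library 3), SCD in KG1A (0.02 by both limma-trend fits), MVK in U937 (0.01 with upper quartile factors, 0.04 and 0.05 by limma-trend, -0.09 to 0.01 with each library left out, the sign changing without DMSO library 1) and FADS2 in U937 (0.02 by both). With each library left out in turn, members called higher and lower numbered 11 to 14 and 6 to 9 in KG1A, 13 to 15 and 11 to 12 in U937, 10 and 11 to 13 for the difference, and 12 to 13 and 17 to 18 between the lines. All genes called higher and lower then numbered 3120 to 3230 and 3036 to 3180 in KG1A. In U937 they were 4812 to 4922 and 4807 to 4949, and for the difference 3254 to 3330 and 4100 to 4180. Between the lines they were 6479 to 6556 and 6553 to 6678. With the replicate block, members called higher and lower were 17 and 12 in KG1A, and 14 and 13 in U937. Among members tested in both lines, 4 further differences passed with it (MVK, SQLE, TM7SF2 and FADS2). The blocked fit changed no other call of these members within the lines or in their difference. Between the lines, where the numbers do not pair, the block gave 13 and 18, with MVD gained (0.13, adjusted p = 0.0434). All genes there gave 6722 higher and 6755 lower with the block, against 6528 and 6595 without it. With no filter or with 1 model of all libraries, members called higher in U937 numbered 16, with ABCA1 and ABCG1 tested. All genes called higher there numbered 5455 with no filter and 5152 with 1 model, against 4985 in the main fit. Depth limits the members near 0 in U937, where a few counts decide a ratio.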
